A study of Drosophila melanogaster with 3 samples.

Results

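The gap genes of *Drosophila melanogaster* were examined for sites occupied by zf30C, a zinc finger protein tagged with GFP. The group held 10 of the 13945 protein-coding genes annotated on the 6 main chromosome arms. They were hb, Kr, kni, knrl, gt, tll, hkb, cad, ems and oc. The genes were named as a set and not by any measured value, but with earlier results of these data known. Around each gene a window was drawn from 10 kb before it to 10 kb after it, and every summit in the window was described. A summit is the position of highest signal in a region called by the authors. The 10 windows held 156 of the 30000 summits of the authors' pooled list and 15 of the 3567 summits of their final list, the list filtered by irreproducible discovery rate (IDR), which scores whether a region holds its rank from one replicate to another. Below, "peak" means a summit of that final list. Its 3567 summits were the 3567 of highest signal in the pooled list, so a peak also stands above a cutoff of pooled signal.

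Chromatin immunoprecipitation with sequencing was carried out on whole embryos of both sexes, collected 0 to 24 h after egg laying, from flies that stably express zf30C with GFP at its C-terminal end. All libraries belonged to 1 group of 3 biological replicates, and no second condition was analysed here. The labels name zf30C as the antibody target, yet their free text calls these libraries an input control. The deposited notes list each alignment beside a separate control, so the libraries were treated as immunoprecipitated samples. Neither the promoter that drives the tagged protein nor the number of zf30C copies in these flies is given in the sources used here. In such whole-embryo samples, strong occupancy in a few cells and weak occupancy in many cells cannot be told apart.

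Gap genes encode transcription factors that divide the early embryo into broad domains along its head-to-tail axis. They read maternal gradients, repress each other at their borders and pass position on to the pair-rule genes. Much of this control is exerted by enhancers that lie several kilobases from the promoter, upstream, downstream or in introns. Many of the genes are used again later, in the nervous system, gut, trachea or head, and a collection over the whole of embryogenesis mixes the early stripes with these later uses.

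Of the 10 genes, 7 had a peak in their window, against 44.2% of all protein-coding genes with windows drawn in the same way. A peak stood at a promoter of their own, meaning within 500 bp of an annotated start, for 4 genes, Kr, knrl, ems and oc, against 9.65% of protein-coding genes. Flanking peaks, more than 500 bp from every annotated start, were found for 4 genes, hb, kni, knrl and oc, against 23.4% of protein-coding genes. The counts with any peak and with flanking peaks can depend on window size, which ran from 21.6 kb for hkb to 43.5 kb for knrl. The shares of protein-coding genes were not matched for window size. Taken over summits in place of genes, 15 of 156 pooled summits were in the IDR list, 9.62% (exact 95% interval 5.48 to 15.4%), against 11.9% of all pooled summits. That interval includes the value of the whole list. The intervals cover counting error only.

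**Figure D1:**
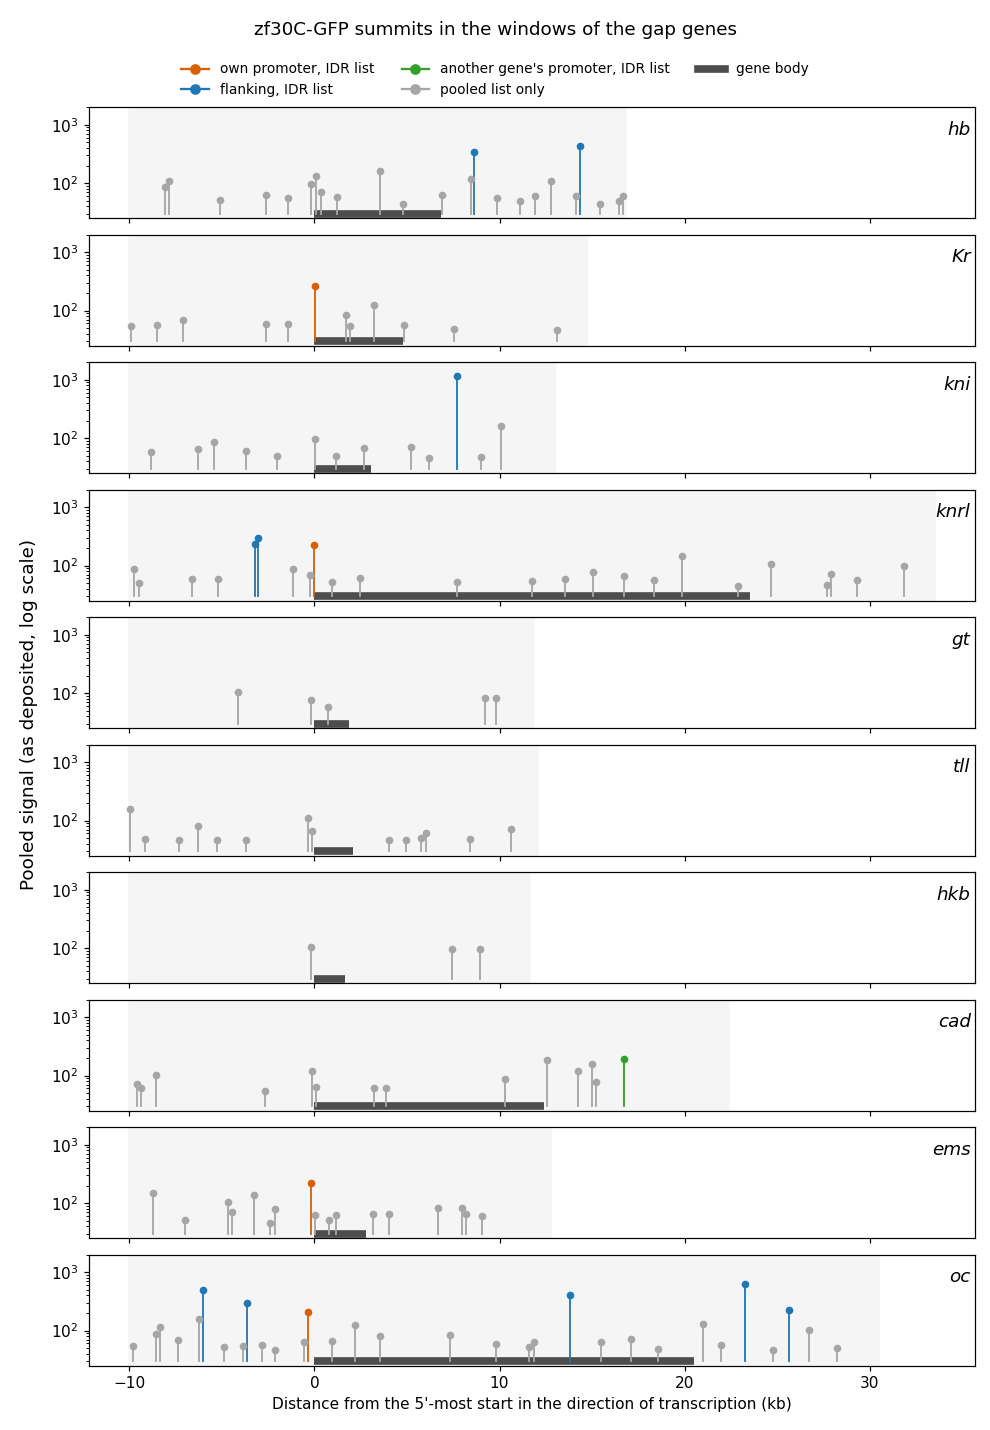
Summits in the windows of the 10 genes, by distance in kb from the 5'-most start in the direction of transcription (horizontal) and pooled signal as deposited (vertical, log scale). Coloured stems are peaks of the IDR list, grey stems are summits of the pooled list only, the dark bar is the gene and the shaded band its window. The strongest peak is the flanking one of kni at 1148, the weakest flanking peaks, at knrl (238) and oc (229), lie below the promoter peak of Kr (260), and the windows of gt, tll and hkb hold no peak.

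The strongest peak of the group lay beyond the 3' end of kni. This gene encodes a DNA-binding protein of the nuclear receptor type without a ligand-binding domain, which patterns the abdomen. The peak, at 3L, 20687270 to 20687872 in dm6, had its summit 6902 bp downstream of the nearest kni start and 4676 bp past the end of the gene. No start of another gene was nearer. Its pooled signal was 1148, in the peak caller's units as deposited, and its pooled rank was 399. It ranked 420 in replicate 1, 334 in replicate 2 and 435 in replicate 3, so that all replicates placed it close together. Its mean percentile in the replicate lists was 98.7 ± 0.18 (SD, n = 3), on a scale from 0, not listed, to 100, the highest of the 30000 summits. Its own promoter carried a pooled signal of 96.6, with the summit 18 bp downstream of the start, and was not in the IDR list.

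The gene oc, also called orthodenticle, encodes a homeodomain protein that patterns the head and responds to the Bicoid gradient. It had the most peaks of the group, 6, in a window of 40.5 kb. As many or more were found for 1.18% of protein-coding genes, which were not matched for window size. Flanking peaks made up 5 of the 6, and for each of them oc had the nearest start. The strongest, with a signal of 626, lay at X, 8627173 to 8627575, 2755 bp past the end of the gene and 15772 bp from the nearest oc start. Its ranks were 939, 782 and 748 in replicates 1 to 3. The summit of the second, 6038 bp upstream of a start, reached 503 and ranked 1192, 1009 and 1147. These peaks stood on opposite sides of the gene and kept their place in the upper part of every replicate list.

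Of the other 3 flanking oc peaks, the intronic one had a signal of 404 and lay 6313 bp downstream of a start. It ranked 1310, 1411 and 2370. The next had a signal of 303, lay 3642 bp upstream and ranked 2153, 1809 and 2055. The weakest, with a signal of 229, lay 18129 bp downstream of the nearest oc start and 5112 bp past the end of the gene, and ranked 4310, 2611 and 2085. In replicate 1 this last peak fell below the 3567 highest regions, the number used here for support by a replicate.

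The gene hb encodes a zinc finger protein that is supplied by the mother and made again in the anterior of the embryo. It had flanking peaks past its 3' end only. One, with a signal of 434, lay at 3R, 8683324 to 8683680, 7514 bp past the end of hb and 11134 bp from its nearest start. Its ranks were 1293, 1448 and 1390. The other, 1798 bp past the end of the gene and 5418 bp from a start, reached 341 and ranked 1671, 1589 and 2282. For neither peak was hb the gene with the nearest start. CG44227 had a start 1710 bp from the stronger peak, and lncRNA:CR44937 had a start 2995 bp from the weaker.

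The gene knrl is the neighbour and close relative of kni and encodes a protein of the same type. A pair of flanking peaks lay 3028 and 3228 bp upstream of its only start, with signals of 294 and 238. The start of the non-coding RNA gene lncRNA:CR44684 was nearer to both, at 804 and 604 bp. Their regions overlapped, and the same replicate regions, with ranks 1749, 2152 and 3091, matched both of them. When each was matched to the nearest replicate summit within 100 bp, the weaker one had ranks 4301, 3387 and 4430 while the stronger kept its own.

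The sequences around the strongest flanking peak of hb, kni, knrl and oc and around the promoter peaks of ems and oc show how differently composed these sites were. They are 201 bp windows centred on the summit, taken from the plus strand of Release 6, which dm6 denotes. Capitals mark exact matches, on either strand, to any of 8 short motifs. These were GAGAG for GAGA factor, CAGGTA for Zelda, TAATCC for Bicoid, TTTTTTA for Hunchback, AAGGGTT for Krüppel, TTTATG for Caudal, AAGTCA for Tailless and CGATA for BEAF-32. The promoter window of knrl was left out because it overlaps its untranslated region, and that of Kr is not shown either.
kni, flanking, chr3L:20687554-20687754: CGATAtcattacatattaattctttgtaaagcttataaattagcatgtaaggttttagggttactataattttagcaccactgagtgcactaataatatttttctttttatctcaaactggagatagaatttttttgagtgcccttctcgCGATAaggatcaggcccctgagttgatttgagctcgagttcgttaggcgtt
oc, flanking, chrX:8627304-8627504: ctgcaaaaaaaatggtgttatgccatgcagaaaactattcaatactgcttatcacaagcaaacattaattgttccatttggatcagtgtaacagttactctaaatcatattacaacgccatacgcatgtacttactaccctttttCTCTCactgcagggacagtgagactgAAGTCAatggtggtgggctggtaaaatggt
hb, flanking, chr3R:8683366-8683566: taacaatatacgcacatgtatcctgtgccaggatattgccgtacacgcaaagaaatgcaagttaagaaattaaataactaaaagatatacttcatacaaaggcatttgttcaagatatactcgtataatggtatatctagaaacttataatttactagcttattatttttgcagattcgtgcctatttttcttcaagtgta
knrl, flanking, chr3L:20623587-20623787: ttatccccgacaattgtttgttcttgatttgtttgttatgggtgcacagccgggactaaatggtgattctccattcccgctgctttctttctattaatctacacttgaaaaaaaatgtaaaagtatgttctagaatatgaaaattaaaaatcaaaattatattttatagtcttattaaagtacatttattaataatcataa
ems, promoter, chr3R:13901565-13901765: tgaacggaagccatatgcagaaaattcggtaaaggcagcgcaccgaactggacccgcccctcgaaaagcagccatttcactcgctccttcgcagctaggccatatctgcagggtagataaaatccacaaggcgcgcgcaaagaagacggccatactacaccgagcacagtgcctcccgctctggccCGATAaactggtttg
oc, promoter, chrX:8650945-8651145: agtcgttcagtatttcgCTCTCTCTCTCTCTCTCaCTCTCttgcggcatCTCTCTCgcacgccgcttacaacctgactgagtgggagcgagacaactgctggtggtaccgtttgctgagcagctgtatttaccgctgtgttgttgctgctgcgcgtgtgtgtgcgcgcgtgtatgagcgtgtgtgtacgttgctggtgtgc

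The 4 flanking windows were poorer in G and C than both promoter windows shown. Their GC content was 34.8% for kni, 38.8% for oc, 30.3% for hb and 27.9% for knrl, against 55.2% at the ems promoter and 55.7% at the oc promoter. The kni window had CGATA at its left end and again 52 bp to the right of the summit. Runs of CTCTC filled the left side of the oc promoter window, with 10 overlapping matches to the GAGA factor motif. No match to any of the 8 motifs was present in the hb and knrl windows. Over all 10 flanking peaks the median GC content was 37.6%, close to the 37.8% of all peaks, and over the 4 promoter peaks it was 50.7%.

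Promoter peaks were weaker than most of the flanking ones. The strongest was that of Kr, a zinc finger repressor that acts in the centre of the embryo. It lay at 2R, 25226410 to 25226849, with the summit 19 bp downstream of the only Kr start and a pooled signal of 260. Its ranks in the replicates were 4474, 2195 and 1402, which spread more widely than those of the kni peak. No flanking summit of Kr was in the IDR list. The strongest of them, in its 3' UTR, had a signal of 125.

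The promoter peak of knrl lay 30 bp upstream of the start with a signal of 226 and ranks of 5397, 2311 and 3056. That of ems, which encodes a homeodomain protein of the head segments, lay 188 bp upstream with a signal of 221 and ranks of 4382, 2307 and 3439. The strongest flanking summit of ems, 8748 bp upstream, had a signal of 147 and missed the list. The promoter peak of oc lay 364 bp upstream with a signal of 207 and ranks of 3782, 2250 and 5677. In replicate 1 all 4 promoter peaks lay below the 3567 highest regions, and in replicate 2 all 4 lay among them.

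At the promoters of the remaining genes there were summits of the pooled list only. The strongest at hb, with a signal of 161, lay 311 bp downstream of the gene's downstream start, known as P2, and ranked 5164, 5074 and 5323. At its upstream start, P1, summits with signals of 130 and 96.4 lay 65 bp downstream and 194 bp upstream and matched the same region in each replicate. The promoter of cad, a homeobox gene whose protein forms a gradient rising towards the tail, had a signal of 119 and ranks of 10488, 4458 and 6346. Of these promoters that of hb P2 was placed most evenly, with a mean percentile of 82.7 ± 0.42 (SD, n = 3).

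No peak lay in the windows of gt, tll and hkb. At gt, which encodes a basic leucine zipper repressor, the promoter summit had a signal of 77.0 and ranks of 9821, 15353 and 8427. The promoter summit of tll, which encodes a nuclear receptor acting at both ends of the embryo, had a signal of 111 and ranked 9527 and 3414 in replicates 1 and 2 but was not listed in replicate 3. That of hkb, a zinc finger gene of the same terminal system, had a signal of 103 and ranks of 20586, 12452 and 5396. The strongest flanking summits had signals of 105 at gt, 155 at tll and 95.3 at hkb. Like every pooled summit outside the IDR list, they lay below the lowest signal of that list, 193. Windows of gt and hkb held 5 and 3 pooled summits, against 31 in the larger window of oc. Per 10 kb of window these were 2.29 and 1.39, the lowest of the group, against 7.65 at oc. No density over the whole genome was set beside them.

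The window of cad held 1 peak, and it belonged to another gene. It lay 175 bp from a start of Pomp, 16587 bp from the nearest cad start, with a signal of 193. Its ranks were 5019, 5416 and 4170, and no replicate supported it. The strongest flanking summit of cad, 174 bp past the end of the gene, missed the list with a signal of 185. Both stood next to the threshold, just inside and just outside it.

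Every one of the 10 genes had a pooled summit at a promoter of its own, against 44.1% of protein-coding genes. In all, 19 pooled summits lay at promoters of the 10 genes, 132 were flanking and 5 lay at promoters of neighbouring genes. Of the promoter summits 4 were in the IDR list, 21.1% (exact 95% interval 6.05 to 45.6%), against 17.1% over all promoter summits of the pooled list. Of the flanking summits 10 were, 7.58% (3.69 to 13.5%), against 9.9% over all flanking summits of protein-coding genes. Both intervals include the value for the whole genome.

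Compared as a whole, promoter summits of the 10 genes ranked higher than flanking ones in every replicate. The median percentile of the 19 promoter summits was 80.2 in replicate 1, 85.1 in replicate 2 and 81.1 in replicate 3. That of the 132 flanking summits was 34.1, 45.2 and 41.4. The groups of summits overlapped widely, but the medians did not. The difference was 41.9 percentile points ± 3.61 (SD, n = 3; higher in 3 of 3 replicates, two-sided exact sign-flip permutation test over replicates, p = 0.25, the smallest p that 3 replicates allow). Neighbouring summits that fell in the same replicate region shared a value. Such sharing occurred among promoter and flanking summits, and how often was not compared. With replicate summits matched within 100 bp the difference was 47 points. Over the whole genome promoter summits also ranked higher, by 20.3, 18.9 and 24.2 points. The sets differed, since the genome's promoter summits lay within 500 bp of any annotated start. Those of the 10 genes lay at the gene's own starts only. The difference at the 10 genes was larger by 20.8 ± 5.14 points (SD, n = 3; in 3 of 3 replicates, exact p = 0.25). These SDs and p-values describe how the replicates repeat the ranks of the same summits. They do not measure the spread among genes or summits, and the 10 genes were not tested against other genes.

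Summits that a replicate did not list at all were placed at 0. Of the flanking summits 32 were missing from replicate 1, 35 from replicate 2 and 34 from replicate 3, and 54 of 132 were listed in all of them. Of the promoter summits 1, 2 and 2 were missing, and 15 of 19 were listed in all. These counts were not made over all pooled summits, so they are not set apart from the rest of the genome.

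Among peaks alone the order turned. The 10 flanking peaks had signals from 229 to 1148 with a median of 372.5, and the 4 promoter peaks from 207 to 260 with a median of 223.5. The ranges overlapped, since the weakest flanking peaks, at oc and knrl, lay among the promoter peaks. Flanking peaks had median percentiles of 95, 94.9 and 93.1 in replicates 1 to 3, and promoter peaks of 85.2, 92.4 and 89.2. Promoter minus flanking, the medians differed by -9.79, -2.53 and -3.92 points (mean -5.42 ± 3.85, SD, n = 3; in 3 of 3 replicates, exact permutation p = 0.25). Of the 10 flanking peaks 5 were those of oc and 2 were the overlapping pair of knrl. The replicates rank the same few peaks of a list made from them. The SD and p therefore describe how these ranks repeat and are no test across genes. In the whole genome, with promoters of any gene, the promoter minus flanking difference was -0.43, -0.34 and 0.95 points.

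**Figure D2:**
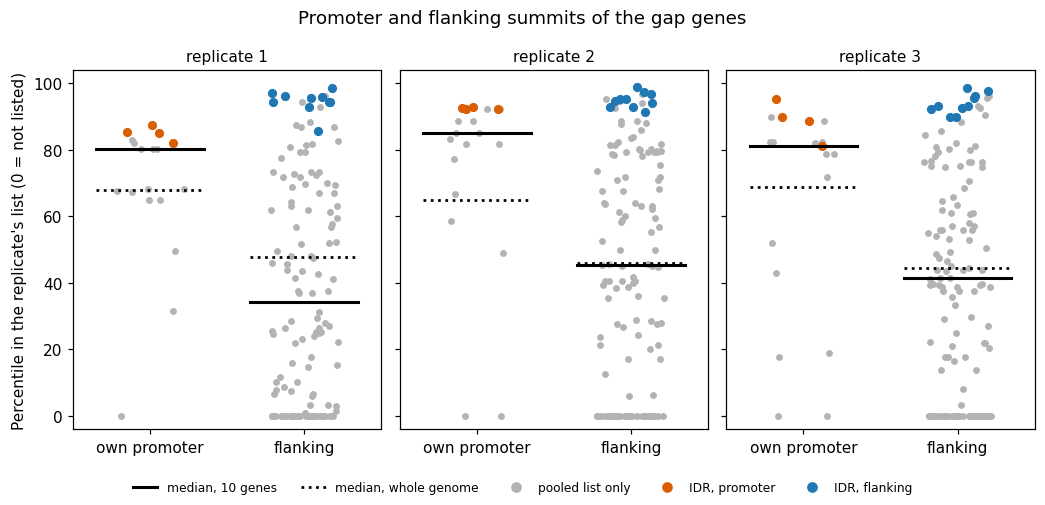
Percentile of each promoter and flanking summit of the 10 genes in the list of each replicate (vertical, 0 for not listed), with peaks of the IDR list in colour and other pooled summits in grey. Solid lines are medians over the 10 genes and dotted lines medians over the whole genome; promoter medians lie between 80.2 and 85.1, flanking medians between 34.1 and 45.2, while the coloured flanking and promoter peaks overlap in every replicate.

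All 3 replicates supported 9 of the 15 peaks by having 1 of their own 3567 highest regions overlap them, against 65.3% of all peaks. The 9 were all flanking. Of the 10 flanking peaks 9 had this support, against 66.6% of the flanking peaks of protein-coding genes, and of the 4 promoter peaks none did, against 62.6% of promoter peaks. With replicate summits matched within 100 bp, 8 peaks had this support, and the weaker of the overlapping knrl peaks did not. Replicate 1 supported 0 of the 4 promoter peaks, against 83.4% of promoter peaks in the genome, while replicates 2 and 3 supported 4 and 3. The 4 had a median pooled rank of 2920, against 1866 for all promoter peaks. The shares of the genome were not matched for rank. Without replicate 1 the number of supported peaks was 13 of 15. The lists were made from these same replicates, so the support describes how the lists relate and is no independent test. Each of the 15 peaks overlapped some region in every replicate list, and each of these lists held 30000 summits. This count, and those with 100 bp matching or without replicate 1, were not made over all peaks.

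**Figure D3:**
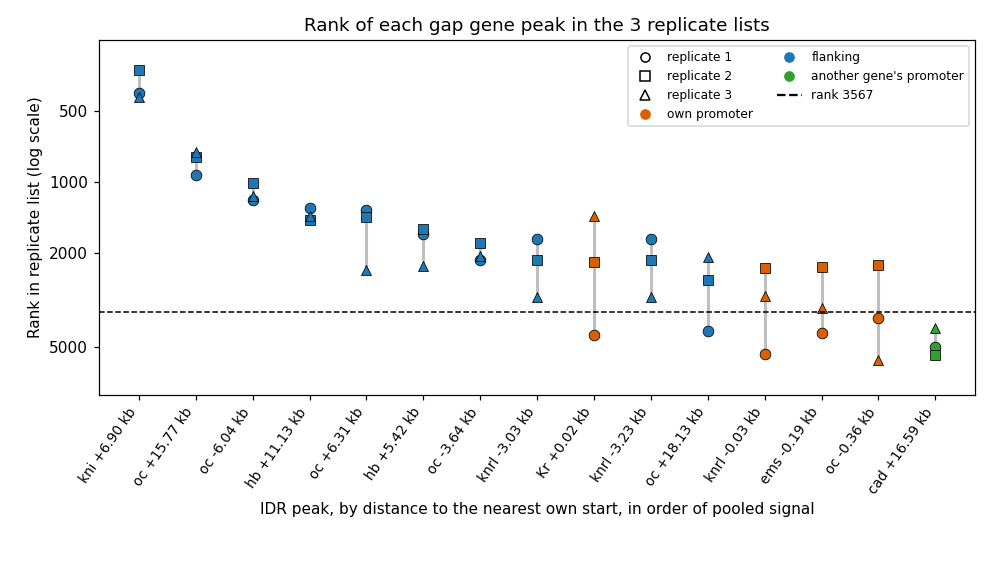
Rank of each of the 15 peaks in the lists of replicates 1 to 3 (vertical, log scale, strongest at the top), in order of pooled signal, each named by its gene and its distance in kb to the nearest start of that gene. The dashed line marks rank 3567; the kni peak stays between 334 and 435, and the circles of replicate 1 lie below the line for all 4 promoter peaks.

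The 8 motifs were searched in the 201 bp windows of all 15 peaks, with overlapping matches counted. The GAGA factor motif was present in 4 of them, 26.7%, against 34.5% of all peaks and 27.6% of all pooled windows. The BEAF-32 motif was present in 3, 20%, against 24.8% and 23.3%. The Caudal and Tailless motifs were present in 2 each, 13.3%. Over all peaks the Caudal motif was present in 19.6% and the Tailless motif in 9.42%, and over all pooled windows in 20.5% and 9.75%. The Bicoid motif was present in 1, 6.67%, against 5.33% of all peaks and 5.57% of all pooled windows. This was the weaker hb peak, which also held 3 matches to the Caudal motif. The Zelda, Hunchback and Krüppel motifs were present in 0 of the 15, against 4.15%, 19.6% and 2.16% of all peaks and 4.92%, 14.3% and 2.09% of all pooled windows. Over the 156 pooled summits of the genes, the Zelda, Bicoid and Tailless motifs were present in 7.69%, 7.69% and 12.2%, above their shares of all pooled windows. The other 5 lay below theirs, with 23.1% for GAGA factor, 12.2% for Hunchback, 1.28% for Krüppel, 17.3% for Caudal and 19.2% for BEAF-32. No test was made of these differences.

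Among 29 other genes of head-to-tail patterning, 20 had a peak in their window, 8 at a promoter of their own and 17 in the flanks. Over all protein-coding genes these shares were 44.2%, 9.65% and 23.4%, and the 29 genes were not tested against them. Of 9 head gap and gap-like genes 7 had flanking peaks, the strongest of them with a signal of 2549 and pooled rank 86, in the window shared by the neighbours slp1 and slp2. It lay 2235 bp downstream of a start of slp1, which like slp2 encodes a forkhead protein. Flanking signals reached 803 at croc, 739 at cnc and 711 at btd. Of the 7 maternal genes 5 had flanking peaks, led by swa with 928, bcd with 474 and pum with 456. In the terminal system gro, which encodes a corepressor, had a promoter peak with a signal of 3446 and pooled rank 39, 72 bp upstream of its start. The early activator gene zld had 8 peaks in its window, including a promoter peak with a signal of 392. Of 7 pair-rule genes 2 had a peak, hry and odd, with flanking signals of 212 and 559, and no peak lay within 10 kb of eve, run, ftz, prd or opa.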

How the data were processed

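ChIP-seq was performed on 3 replicates, with chromatin sheared to 200 to 800 bp per the labels. Per the deposited notes, each replicate list came from its own alignment and 1 control, the pooled list from all 3 replicates and that control, and the IDR list from these lists, on build dm6. The sources used here do not give the aligner, the peak caller, their versions or the IDR threshold. The signal values are used as the authors deposited them, in a unit that is not stated. The −log10 q-values deposited by the authors were not used to rank, since they equal 3.96 for every summit of the IDR list. The lists hold no read counts, so depth is unknown.

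All 3567 IDR summits were found in the pooled list with equal signal, and were its highest. Positions were compared with Ensembl release 115 (BDGP6.54), whose 23581 starts exclude transposable elements. No coordinate lay past the end of an arm. Each summit was given once to its gene, with the nearest start of any gene recorded. Replicate ranks are those of the highest replicate region overlapping the peak's region by at least 1 bp. All 10 genes, every peak, and the strongest other promoter and flanking summits were named by rule. The members, gene lists and motifs were chosen with earlier results of these data known. The gene nos was matched as nanos. Sequences are from the RefSeq copy of Release 6. Intervals are Clopper-Pearson. Placing and matching were tested on simulated data with known answers (Python 3.11.15, SciPy 1.17.1). Alternatives changed windows, promoter distance, list threshold, matching and replicates.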

Additional observations from a re-analysis of the deposited data

How the results depend on the processing

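No paired analysis was possible between groups because there is 1 group; promoter and flanking values were compared within each replicate. Of 46 alternative values of the main counts, shares and differences, 35 stayed close (counts within 1.5 times, shares within their interval, differences with the same sign), 10 moved and 1 reversed. With the upper 50% of the IDR list, 6 of the 15 peaks were left, the number of genes with a promoter peak was 0 and so was the share of promoter summits listed. With peaks supported by all replicates, 9 peaks were left and again 0 genes had a promoter peak. When a summit was kept only if its nearest start was the gene's own, 2 genes had flanking peaks, those of hb and knrl being nearer to other genes. The 9 peaks supported by all replicates became 14 with 20 kb windows and 8 with a replicate summit within 100 bp. The number was 4 when a replicate region had to cover 50% of the peak. With 0.5 times as many top regions it was 4, and with 2 times as many it was 15. Without 1 replicate in turn this number was 9 to 13. The promoter minus flanking difference of 41.9 points ran from 39.9 to 43.0 without 1 replicate, and reversed to -5.42 with peaks of the IDR list only, where the weaker promoter and flanking summits are left out. For single genes, 5 of 30 counts of peaks moved, at hb, knrl and cad.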

Other observations

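Widening the windows from 10 to 20 kb outside the genes added 6 peaks, which were looked at after the others. At oc, peaks with signals of 523 and 199 lay 15047 and 15249 bp upstream of the nearest oc start, and the nearest start of any other gene, that of Rubicon, was 11335 and 11133 bp away. At cad, a peak with a signal of 1235, higher than that of any peak within 10 kb of the 10 genes, lay 252 bp from a start of the neighbour dia, which encodes a formin, and a flanking peak with a signal of 453 lay 1018 bp from that start. The remaining ones lay 21 bp from a start of CG9328 in the cad window, with a signal of 229, and 468 bp from lncRNA:CR44681 in the knrl window, with a signal of 246. All but the last had the support of all 3 replicates. None of them lay near gt, tll or hkb, which had no peak within 20 kb.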
